A study of Mus musculus with 3 samples.

Results

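Fibroblasts of visceral fat were compared directly between 2 ligands, oncostatin M (Osm) and transforming growth factor beta 1 (TGF-beta1), by RNA sequencing of 1 library each. The cells came from wild-type (WT) mice fed a high-fat diet (HFD). They were the cells of the stromal vascular fraction (SVF) that a magnetic sort left negative for CD45, CD31 and Ter119, the surface proteins of leukocytes, endothelium and erythroid cells. The ligands were mouse Osm and human TGF-beta1, both recombinant and given at 3 ng/mL, for 24 h. A vehicle library, labelled as the control and given no time, is printed beside both. The sources used here do not say how many mice stood behind a culture. The genes compared were the protein-coding genes with a level of at least 10 CPM, the count scaled by the library total, in either ligand library, 9053 of the 21970 protein-coding genes and of the 56748 genes of all kinds that the table lists. With 1 library per condition no difference has a replicate check and no test was possible. A gene was counted as higher in 1 library where its CPM ratio was at least 2-fold, and the range in parentheses after a fold is the exact 95% interval of the ratio of the 2 counts, which covers counting error only and compares libraries, not conditions.

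Osm belongs to the interleukin 6 family of cytokines. It binds its receptor chain Osmr together with gp130, the shared chain encoded by Il6st, and activates Janus kinases and Stat3. TGF-beta1 binds a pair of receptor kinases, encoded by Tgfbr1 and Tgfbr2, that phosphorylate Smad2 and Smad3. It is the classical signal for fibroblasts to take on the contractile, collagen-producing form called the myofibroblast. In obese fat, fibroblasts lay down the matrix of fibrosis and are also the source of new adipocytes. The direct comparison puts side by side the transcriptomes of the same kind of cell after the same time at the same nominal concentration of each ligand, which says nothing of whether those concentrations are equally active.

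Count totals were 18336068 for vehicle, 17319872 for Osm and 18533741 for TGF-beta1, and the 9053 genes held 97.1% of the Osm counts and 97.4% of the TGF-beta1 counts. All 11 fibroblast markers on the list were among the genes compared, with summed levels of 23090 CPM in vehicle, 23430 with Osm and 26100 with TGF-beta1. By gene the order was mixed: 8 of the 11 had log2 ratios of Osm over TGF-beta1 above 0 and 3 below, with a median of 0.29. Markers of the cells that the sort removes were low. The 12 leukocyte markers summed to 24.4, 21.1 and 17.8 CPM in the same order, with 4 of them at 0 in all libraries. The 8 endothelial markers summed to 58.0, 46.9 and 38.6 CPM, and the 6 erythroid markers found were at 0 throughout. Summed levels of the 9 adipocyte markers were 11.5, 9.05 and 7.27 CPM, with 4 at 0 in all libraries. The mural list stood at 87.5, 81.9 and 134.7 CPM and the Schwann list at 41.4, 40.3 and 216.5 CPM, with Higd1b of the former and Sox10, the defining factor of Schwann cells, at 0 throughout. Cspg4 of the mural list and Ncam1 of the Schwann list carried most of those 2 differences and are described below, and whether other cells took part in either was not tested. In such bulk libraries a smaller share of cells of a type and less RNA per cell cannot be told apart.

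Most genes were at similar levels with both ligands. The log2 ratio of Osm over TGF-beta1 had a median of -0.04 and a standard deviation (SD) across genes of 0.43, and 62.6% of the genes were within 1.2-fold and 89.4% within 1.5-fold of each other. Osm gave the higher level by 2-fold or more in 204 (2.25%) of the 9053 genes and TGF-beta1 in 100 (1.10%), together 3.36%. Among 13498 genes of any kind with at least 1 CPM in either library the shares were 5.19% and 2.53%. Of the 204 and 100 genes, the counting interval lay wholly past 2-fold for 143 and 70. Differences of at least 4-fold numbered 36 and 18, and of at least 8-fold 6 and 4, the latter being Col8a2, Lrp2, Cspg4 and Cthrc1. No gene compared had a count of 0 in either ligand library. The genes higher with Osm together made up 39764 CPM in vehicle, 41286 with Osm and 15622 with TGF-beta1. The genes higher with TGF-beta1 made up 12684, 11925 and 32965 CPM.

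**Figure D1:**
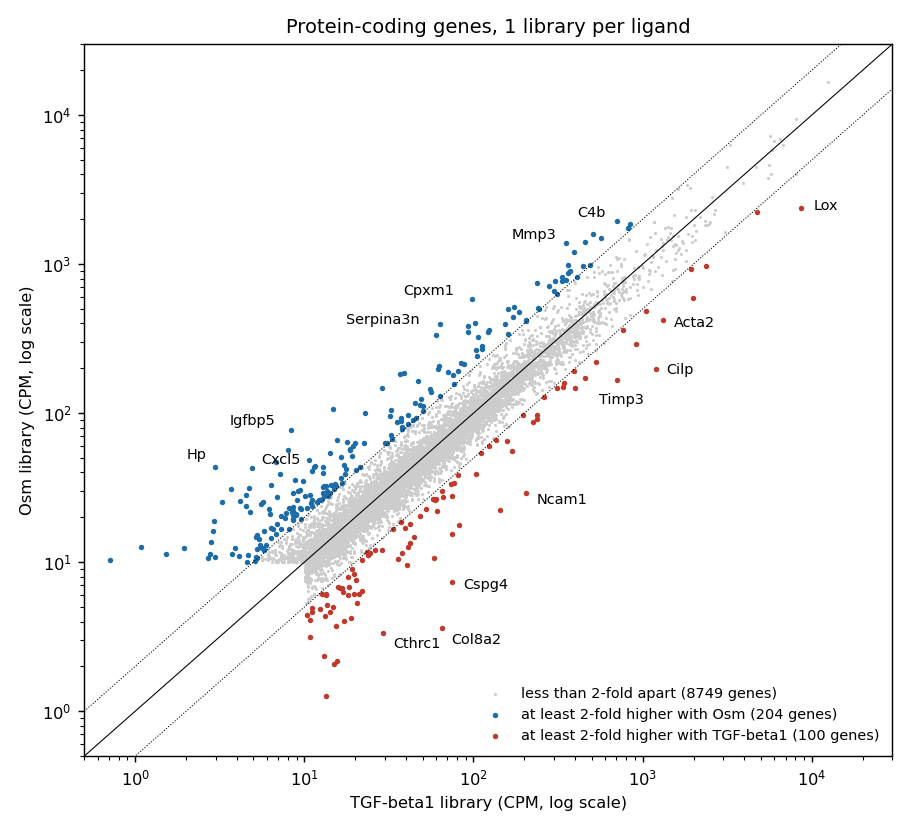
Level of each of the 9053 genes in the Osm library (vertical) against the TGF-beta1 library (horizontal), both in CPM on log axes, with the solid line at equal levels and the dotted lines at 2-fold. Blue points are the 204 genes at least 2-fold higher with Osm and red points the 100 at least 2-fold higher with TGF-beta1, while the grey cloud of the rest lies along the line of equal levels.

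Called genes were found at every level. Among the 3250 genes with a mean under 30 CPM, 107 were higher with Osm and 51 with TGF-beta1, and among the 98 genes at a mean of 1000 CPM or more the counts were 5, namely C4b, Dcn, Gpnmb, Lpl and Tnxb, and 5, among them Ccn2, Lox, Ltbp2 and Postn. The genes nearest to the threshold show how little separates the sides. Colec12, a scavenger receptor, was just past it at 627 CPM with Osm against 313 with TGF-beta1, and Dysf, the membrane repair protein dysferlin, at 16.8 against 33.6. Col1a1, at 4023 against 8039 CPM, and Aldh1l2, at 294 against 588, were just short of it, with folds of 1.998 and 1.998. At the edge of the expression filter, Fndc4 was just inside at 10.03 CPM with Osm and Ero1b just outside at 9.98 CPM with TGF-beta1.

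The vehicle level was nearer to Osm than to TGF-beta1, on the log2 scale, for 202 of the 204 genes higher with Osm and for 98 of the 100 higher with TGF-beta1, against 76.5% of all genes compared. It lay within 1.2-fold of the Osm level in 139 (68.1%) and 60 (60%) of them, against 92.97% of all genes compared. It lay within 1.2-fold of the TGF-beta1 level in 1 (Chst2) and 1 (Aspn) of them, against 62.5% of all. A further 44 and 34 had vehicle between the ligands and at least 1.2-fold from both. Set against vehicle, the same 9053 genes gave 4 (0.0442%) at least 2-fold higher and 4 (0.0442%) lower with Osm (0.0884% in all), and 88 (0.972%) higher and 210 (2.32%) lower with TGF-beta1 (3.29% in all). With Osm the 8 were Csmd1, Rps27a, Serpina3n and Sorcs2 above vehicle and Aspn, Col8a2, Lrp2 and Sumo2 below it. Rps27a, a ribosomal protein, had 115 CPM in vehicle, 231 with Osm and 124 with TGF-beta1, and Sumo2, a protein modifier, 45.2, 12.4 and 24.3. Both are named after their values were seen, and ribosomal protein and Sumo genes have many near-identical copies whose reads counting can split. The 3 ratios share libraries, so these counts stand side by side and are not independent of each other. Vehicle lay between the ligands for 117 of the genes higher with Osm and above both for the other 87. For the genes higher with TGF-beta1 it lay between for 71 and below both for 29.

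The 4 genes whose vehicle level was nearer to TGF-beta1 are named here after their values were seen. Aspn, the small leucine-rich proteoglycan asporin, had 17.1 CPM in vehicle, 7.61 with Osm and 20.3 with TGF-beta1, so that its Osm level was the one apart. Olfm2, an olfactomedin, had 12.3, 8.01 and 18.1 CPM. Rtn4rl2, a Nogo receptor relative, had 17.8, 32.3 and 13.4 CPM, and Chst2, a sulfotransferase, 17.8, 32.4 and 15.5. The last 2 were the reverse of Aspn, higher with Osm than in either other library.

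The group with the highest median difference was the acute-phase proteins, the plasma proteins that liver and stroma secrete in inflammation. Of 8 listed genes that were expressed, 7 passed 2-fold toward Osm and none toward TGF-beta1, and the median log2 ratio was 2.36 against -0.04 over all genes compared. Hp, which encodes the haemoglobin scavenger haptoglobin (chr8:110301760-110305804, minus strand, mm39), had 22.2 CPM in vehicle, 43.8 with Osm and 2.98 with TGF-beta1, the largest fold of all genes higher with Osm at 14.6 (11.2 to 19.7). Serpina3n, a serine protease inhibitor (chr12:104372988-104380588, plus strand), had 193, 397 and 63.2 CPM, 6.29-fold higher with Osm (5.91 to 6.70). In both genes vehicle stood between, with the Osm level above it and the TGF-beta1 level below it. Ahsg, the mineral-binding protein fetuin-A, had 24.3, 30.9 and 3.69 CPM, a difference of 8.32-fold (6.50 to 10.9). Kng2, a kininogen, had 75.8, 106 and 14.9 CPM, and 20.1% of its sampled 50-base windows also occur in transcripts of another gene. Lbp, which presents bacterial lipopolysaccharide to its receptor, had 62.4, 65.8 and 15.6 CPM, and the copper carrier Cp 111, 118 and 45.2. For these last 2 the Osm level was within 1.2-fold of vehicle and TGF-beta1 was the library apart. Saa3, an acute-phase serum amyloid, was under the expression filter at 2.39, 7.72 and 0.543 CPM.

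**Figure D2:**
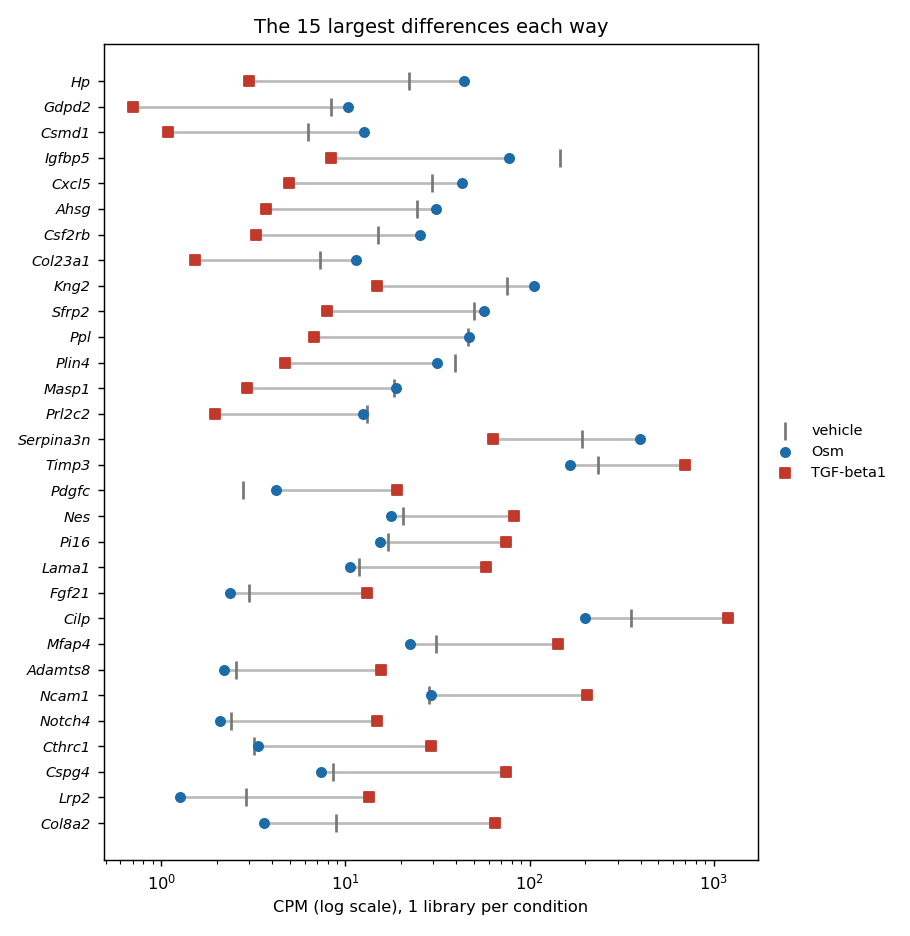
Level in CPM, on a log axis, of the genes with the largest fold each way, with the vehicle library as a grey tick, Osm as a blue circle and TGF-beta1 as a red square, 1 library per condition. The genes higher with Osm, from Hp downwards, are at the top and those higher with TGF-beta1, down to Col8a2, at the bottom, and in every row the tick is nearer to the blue circle than to the red square.

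Complement genes also had higher levels with Osm than with TGF-beta1, while the place of vehicle varied. All 10 that were expressed had ratios above 0 and 7 were at least 2-fold higher with Osm, with a median log2 ratio of 1.09. C3, the central component, had 868 CPM in vehicle, 901 with Osm and 371 with TGF-beta1 (2.43-fold, 2.36 to 2.50). Serping1, the inhibitor of the C1 proteases, had 919.8, 991 and 361 CPM, and C7, of the membrane attack complex, 30.1, 34.2 and 16.7. C4b had 1675, 1955 and 706 CPM. C1ra had 181, 157 and 76.7 CPM, with vehicle the highest library, and C2 29.9, 29.97 and 13.6. C4b, C1ra and C2 share 32.2%, 51.0% and 54.7% of their windows with another gene, so how their reads were split is uncertain. Masp1, a lectin pathway protease, had 18.4, 18.9 and 2.93 CPM and overlaps Rtp4 on the opposite strand, which had 4.35, 4.84 and 3.26 CPM. Of those not called, C1s1, a C1 protease, had a log2 ratio of 0.86.

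Of 14 chemokines and cytokines, 5 passed 2-fold toward Osm and none toward TGF-beta1, with a median log2 ratio of 0.46. Cxcl5, which attracts neutrophils (chr5:90907219-90909483, plus strand), had 29.7 CPM in vehicle, 42.99 with Osm and 4.94 with TGF-beta1, 8.66-fold higher with Osm (6.997 to 10.9). Ccl11, the eosinophil attractant eotaxin, had 149, 164 and 46.7 CPM, and its neighbour Ccl8, a monocyte attractant, 164, 179 and 75.8. Il33, an alarmin that fat stroma makes, had 13.1, 15.3 and 5.26 CPM. The last of the 5 was Cxcl12, which retains progenitor and immune cells, at 866, 969 and 444 CPM. Csf1, the growth factor of macrophages, differed little, at 2197, 2168 and 2639 CPM. Of 12 genes of MHC class I presentation all had ratios above 0, with a median of 0.50, and Psmb8, an immunoproteasome subunit, was the 1 called, at 16.6, 15.5 and 6.78 CPM. None of 17 interferon response genes was called.

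Genes known to respond to gp130 and Stat3 gave 7 of 35 past 2-fold toward Osm and none toward TGF-beta1, with a median log2 ratio of 0.34. Hp, Cxcl5, Serpina3n, Lbp and C3 are among the 7 and were counted in the groups above. The others were Il1r1, the interleukin 1 receptor, at 236, 266 and 103 CPM, and Steap4, a metalloreductase of fat cells, at 38.9, 43.2 and 11.3. Socs3, the feedback inhibitor of gp130 signalling, was not called: it had 54.3 CPM in vehicle, 87.1 with Osm and 54.5 with TGF-beta1, a ratio of 1.60 (1.47 to 1.73). Vehicle and TGF-beta1 were at nearly equal Socs3 levels and Osm stood above both. Stat3 itself had 373, 383 and 305 CPM. Timp1, an inhibitor of matrix metalloproteinases that responds to both kinds of signal, went the other way, with 604, 772 and 1497 CPM and a ratio of TGF-beta1 over Osm of 1.94 (1.90 to 1.98). Both ligand libraries were above vehicle for Timp1, TGF-beta1 the more so.

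RefSeq promoter windows, which run from 250 bases before to 50 bases after the start of a gene on the assembly GRCm38.p6, were matched by symbol for 7281 of the 9053 genes, for 143 of those higher with Osm and for 69 of those higher with TGF-beta1. That build is not the one of the deposited table. All motifs below were searched on both strands, and none contains another. The paired STAT motif TTCCNGGAA occurred in 4 windows of genes higher with Osm (2.80%), in none of the genes higher with TGF-beta1, in 1.55% of all genes compared and in 1.15% of the 32851 windows of the table. A match is a description of the letters in the window and no evidence of binding. The stretches around 3 of the 4 are shown, in lower case with the match in capitals, as the called genes that carry the letters Stat3 can bind. They are chr5:7960310-7960409 for Steap4 (plus strand, match 108 to 116 bases before the start), chr8:124569825-124569924 for Agt (minus strand, 164 to 172 bases) and chr16:62854169-62854268 for Pros1 (plus strand, 84 to 92 bases).
Steap4: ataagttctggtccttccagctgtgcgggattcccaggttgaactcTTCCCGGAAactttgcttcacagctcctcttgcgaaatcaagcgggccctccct
Agt: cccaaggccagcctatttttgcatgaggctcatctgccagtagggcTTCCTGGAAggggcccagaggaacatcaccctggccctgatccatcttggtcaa
Pros1: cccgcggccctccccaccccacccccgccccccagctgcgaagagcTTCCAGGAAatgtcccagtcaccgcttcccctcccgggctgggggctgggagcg
Agt, the precursor of angiotensin, had 40.3 CPM in vehicle, 43.7 with Osm and 12.9 with TGF-beta1, and Pros1, the anticoagulant protein S, 627, 769.9 and 302. They and the fourth gene, Rasl11a, were picked by the motif after the calls were known.

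Ligands of the interleukin 6 family stood in the opposite order to their receptors. The ligands Il11 and Lif were at least 2-fold higher with TGF-beta1. Il11, a profibrotic cytokine of this family (chr7:4775372-4785858, minus strand), had 11.7 CPM in vehicle, 9.62 with Osm and 40.3 with TGF-beta1, 4.18-fold higher with TGF-beta1 (3.54 to 4.98). Lif, leukaemia inhibitory factor (chr11:4207557-4222514, plus strand), had 7.83, 6.17 and 19.8 CPM. In both genes Osm was the lowest library, vehicle was 1.22-fold and 1.27-fold above it and TGF-beta1 was the highest. Clcf1 had 22.4, 25.7 and 33.2 CPM and was not called. The 5 receptor chains had ratios above 0, none of them 2-fold. Osmr had 487, 569 and 454 CPM and Il6st 704, 742 and 593, ratios of 1.25 and 1.25. Lifr, which also binds Lif, had 86.4, 83.1 and 43.999 CPM, a ratio of 1.89 (1.73 to 2.06). Il6ra had 23.9, 21.5 and 12.9 CPM and Il11ra1, the chain that binds Il11, 105, 108 and 84.3. Il6 itself was under the expression filter, at 6.79, 6.11 and 8.30 CPM.

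**Figure D3:**
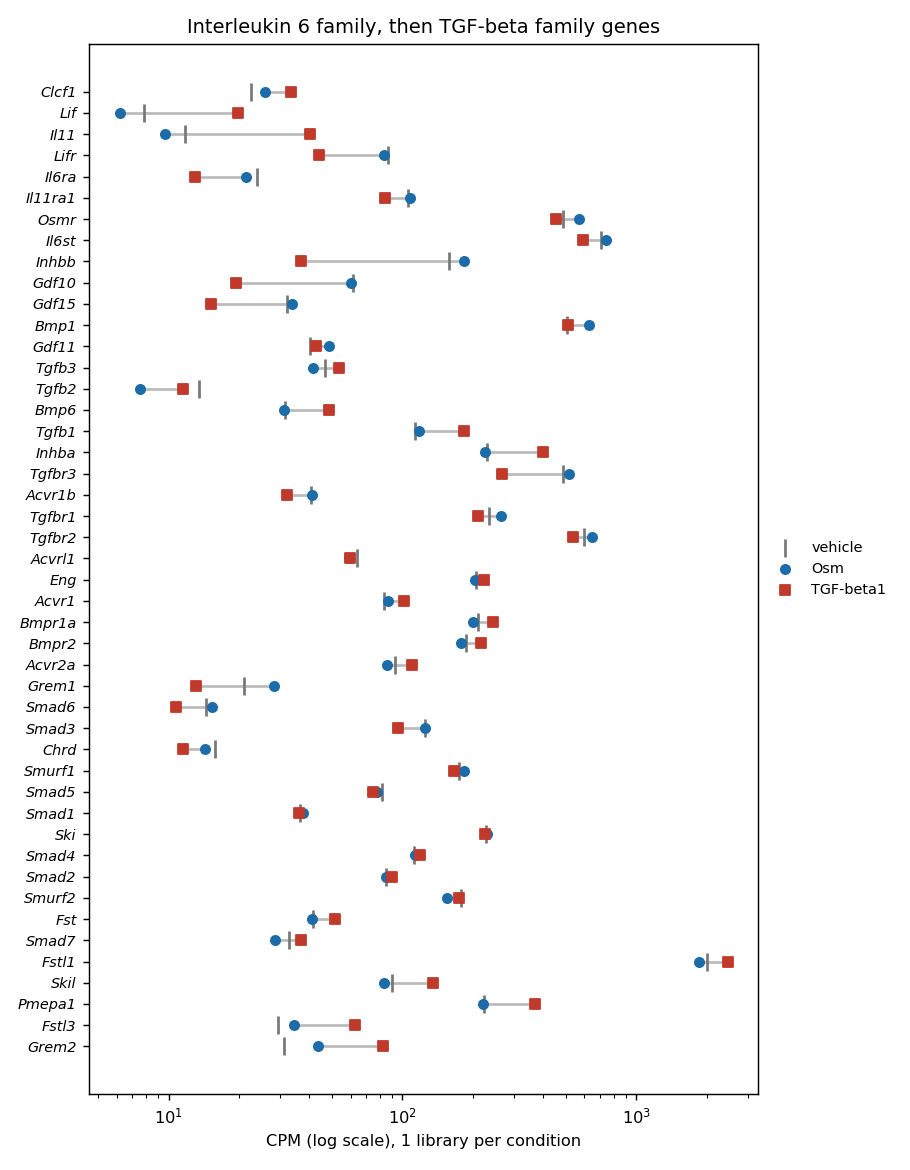
Level in CPM, on a log axis, of 8 interleukin 6 family genes and the 38 TGF-beta family ligands, receptors and Smads that were expressed, with vehicle as a grey tick, Osm as a blue circle and TGF-beta1 as a red square, 1 library per condition. Among the first rows the red square is to the right for the ligands Clcf1, Lif and Il11 and to the left for the receptor chains, and among the rows that follow Inhbb and Gdf10 show the widest gaps.

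The promoter windows of Il11 and Lif both held the AP-1 motif TGANTCA, which occurred in 9 windows of genes higher with TGF-beta1 (13.0%), 13 of genes higher with Osm (9.09%), 6.14% of all genes compared and 7.81% of all windows. They are shown because both ligands lie in the same group and carry the same letters, at 92 to 98 bases before the start for Il11 (chr7:4778187-4778286, minus strand) and 222 to 228 bases for Lif (chr11:4257318-4257417, plus strand).
Il11: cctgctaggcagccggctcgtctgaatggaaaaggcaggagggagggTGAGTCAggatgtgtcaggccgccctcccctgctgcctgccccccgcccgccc
Lif: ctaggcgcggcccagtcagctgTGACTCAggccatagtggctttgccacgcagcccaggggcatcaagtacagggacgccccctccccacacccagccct
Mmp3, which was higher with Osm, held it too, so that the letters occurred in called genes of both directions.

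The receptors and Smads of the TGF-beta family differed little. Of 38 family members, 4 passed 2-fold toward Osm and none toward TGF-beta1, and the median log2 ratio was -0.07. Tgfbr1 had 235 CPM in vehicle, 265 with Osm and 210.1 with TGF-beta1, and Tgfbr2 596, 646 and 535. Smad7, the feedback inhibitor, had 32.7, 28.5 and 36.7 CPM. The 4 called genes were ligands and an antagonist of this family. Inhbb, the subunit of activin B, had 158, 183 and 36.9 CPM, a difference of 4.95-fold (4.56 to 5.39). Gdf10 had 61.5, 60.3 and 19.4 CPM and Gdf15, a stress-induced member, 32.1, 33.6 and 15.2. Grem1, a secreted antagonist of bone morphogenetic proteins, had 21.03, 28.2 and 13.1 CPM. Inhba, the subunit of activin A, stood the other way at 229.99, 226 and 401 CPM, and Tgfb1, the gene of the ligand itself, at 114, 118 and 184, both under 2-fold. Id3, which encodes an inhibitor of helix-loop-helix factors and responds to bone morphogenetic proteins, had 51.6, 50.5 and 16.4 CPM, 3.07-fold higher with Osm (2.69 to 3.51), and Id1 had 16.7, 14.8 and 7.87.

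Known response genes of TGF-beta gave 11 of 31 at least 2-fold higher with TGF-beta1 and 1 with Osm, with a median log2 ratio of -0.74. Cthrc1, a secreted marker of matrix-producing fibroblasts (chr15:38940327-38950516, plus strand), had 3.21 CPM in vehicle, 3.34 with Osm and 29.1 with TGF-beta1, 8.64-fold higher with TGF-beta1 (6.63 to 11.6). Vehicle and Osm were close for Cthrc1 and far below TGF-beta1. Cilp, a matrix protein that binds TGF-beta1, had 353, 199 and 1198 CPM (6.02-fold, 5.81 to 6.24), with Osm below vehicle and TGF-beta1 above it. Postn, the matricellular protein periostin, had 1035, 977 and 2375 CPM and Tnc, tenascin C, 149, 171 and 459. Ccn2, connective tissue growth factor, had 987, 934 and 1936 CPM, a ratio of 2.07 that fell under 2-fold when levels were scaled to the housekeeping genes. Tgfbi, a matrix protein named for its response to TGF-beta, was the 1 listed gene that was higher with Osm, at 30.2, 28.98 and 12.97 CPM (2.23-fold, 1.91 to 2.62). Lrrc15, a marker of myofibroblasts that was under the expression filter, had 0.326, 0.230 and 6.24 CPM.

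**Figure D4:**
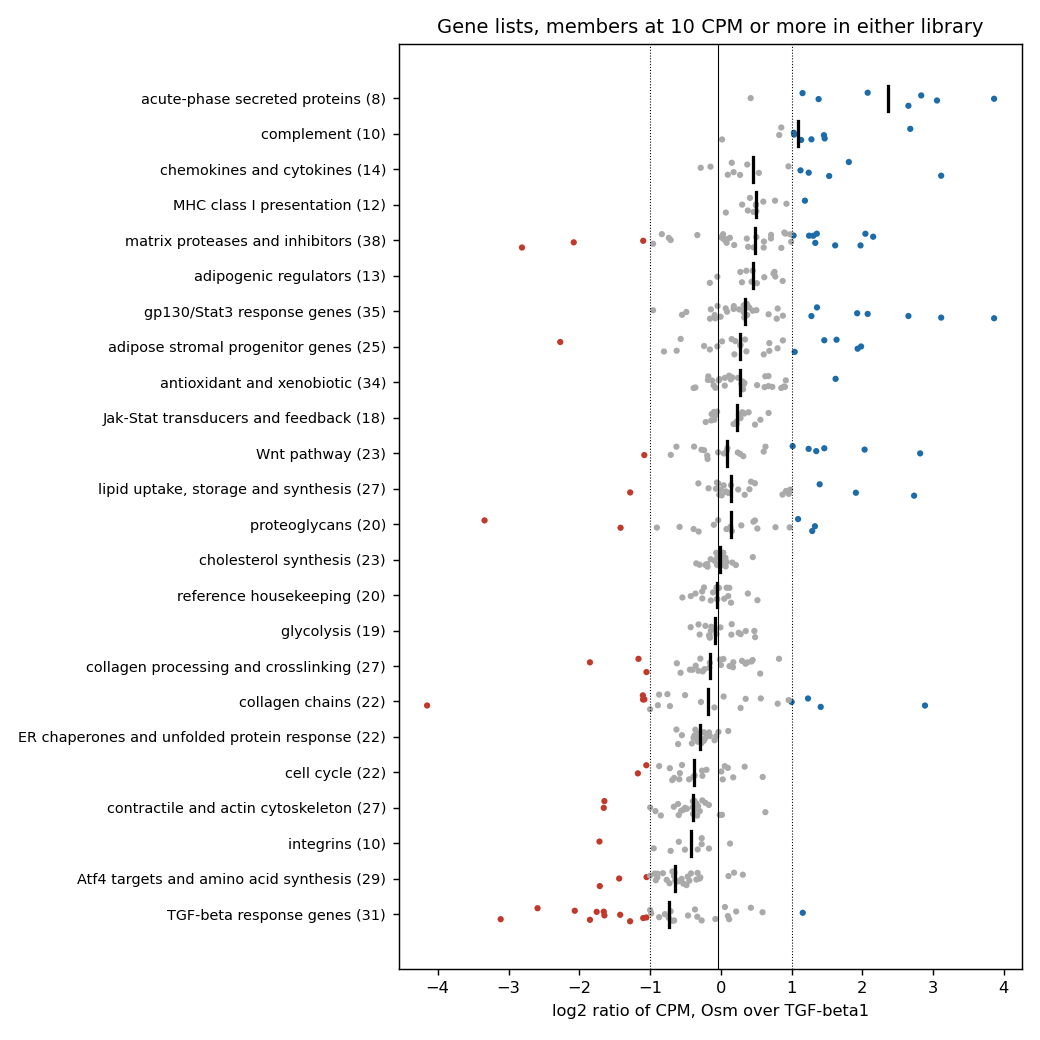
Log2 ratio of Osm over TGF-beta1 for each expressed gene of the lists named at the left, with the number of genes in parentheses, a black bar at the median of each list, a solid line at the median of all 9053 genes and dotted lines at 2-fold. Blue points are at least 2-fold higher with Osm and red points at least 2-fold higher with TGF-beta1, and the medians run from 2.36 for acute-phase proteins at the top to -0.74 for TGF-beta response genes at the bottom.

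Contractile and actin genes stood below 0 in 25 of 27 cases, with a median log2 ratio of -0.40, but only Acta2 and Tagln passed 2-fold. Acta2, the smooth muscle actin that defines myofibroblasts, had 446 CPM in vehicle, 422 with Osm and 1327 with TGF-beta1, 3.15-fold higher with TGF-beta1 (3.07 to 3.23). Tagln, an actin-binding protein, had 318, 291 and 909 CPM, and 63.0% of its windows occur in another transcript, so its count is uncertain. Tpm2 and Tns1, an actin filament coat protein and a focal adhesion protein, were just under 2-fold at 68.4 against 129.7 and 266 against 531 CPM. Mylk, the kinase that starts contraction, stood the other way at 68.1, 60.7 and 39.2 CPM. Of 10 genes on the integrin list 9 had ratios below 0. Only Itgbl1, which is an integrin beta-like gene and not an integrin chain, was called, at 19.02, 12.6 and 41.3 CPM. The CArG box, the motif of serum response factor that lies before many muscle genes, occurred in 4 windows of genes higher with TGF-beta1 (5.80%), 1 of genes higher with Osm (0.699%), 1.61% of all genes compared and 1.63% of all windows. The stretches of Dusp5, a phosphatase of Erk kinases, and Fhl2, a LIM-domain partner of actin regulators, are shown as examples of those letters. They lie at chr19:53529018-53529117 (plus strand), with a pair of adjoining matches of which the farther lies 73 to 82 bases before the start, and chr1:43196803-43196902 (minus strand), 87 to 96 bases before it.
Dusp5: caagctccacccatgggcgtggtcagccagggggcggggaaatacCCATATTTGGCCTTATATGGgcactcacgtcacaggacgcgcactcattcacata
Fhl2: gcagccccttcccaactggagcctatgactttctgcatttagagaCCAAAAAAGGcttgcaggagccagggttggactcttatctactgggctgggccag
Dusp5 had 8.86 CPM in vehicle, 6.11 with Osm and 13.5 with TGF-beta1, and Fhl2 84.02, 60.7 and 124. In both, Osm was below vehicle and TGF-beta1 above it. Both were picked after their values were seen. The other carriers higher with TGF-beta1, not shown, were Pdgfc, at 2.77, 4.21 and 18.99 CPM, and Stbd1, at 38.53, 38.55 and 80.67. Osm was above vehicle for Pdgfc and level with it for Stbd1. Selenbp1, the carrier higher with Osm, had 27.6, 22.6 and 6.18 CPM and is not shown. The Acta2 window held no CArG box in the searched form, which says only that these letters are not in that window.

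The median ratios of collagen chains divided by class. Summed levels of fibrillar chains were 17500 CPM in vehicle, 18160 with Osm and 24340 with TGF-beta1. Those of basement membrane or network chains were 3855, 3646 and 4379 CPM. For collagen VI, fibril-associated or transmembrane chains they were 2529, 2147 and 2247 CPM. The ligands differed little in this last sum, and both were below vehicle. Of 22 expressed chains 4 passed 2-fold toward Osm and 4 toward TGF-beta1, and the medians were -0.61 for the 6 fibrillar chains, -0.75 for the 7 basement membrane or network chains and 0.96 for the 9 collagen VI, fibril-associated or transmembrane chains. Col8a2, a network chain (chr4:126180586-126208123, plus strand), had the largest fold of all genes higher with TGF-beta1, 8.91 CPM in vehicle, 3.63 with Osm and 64.9 with TGF-beta1, which is 17.8-fold (13.9 to 23.4). Osm was 2.44-fold below vehicle for Col8a2 and TGF-beta1 7.27-fold above it. Col1a1 and Col1a2, the chains of the main fibre-forming collagen, had 4285, 4023 and 8039 and 4302, 4032 and 5720.4 CPM, ratios of TGF-beta1 over Osm of 1.998 and 1.42. Col3a1, the fibrillar chain of fine reticular fibres, stood the other way at 6175, 7276 and 5701 CPM, a ratio of Osm over TGF-beta1 of 1.28 (1.27 to 1.29). Osm was above vehicle for Col3a1 and slightly below it for Col1a1 and Col1a2. Col5a2 had 1573, 1654 and 3062 CPM.

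All 4 calls toward Osm lay in the class of collagen VI, fibril-associated or transmembrane chains, which also held 2 calls toward TGF-beta1. Col14a1, a fibril-associated chain, had 134, 113 and 48.2 CPM (2.35-fold, 2.17 to 2.55). Col6a3, of the beaded filaments of collagen VI, had 905, 821 and 409.99 CPM, a ratio at the threshold that fell under it with DESeq2 size factors, while its partners Col6a1 and Col6a2 had 363, 265 and 179 and 313, 247 and 204. For the 3 collagen VI chains vehicle was the highest library and TGF-beta1 the lowest. Col23a1, a transmembrane chain, had 7.28, 11.4 and 1.52 CPM, and Col28a1 15.5, 16.9 and 6.35. In the same class Col12a1 and Col16a1, both fibril-associated, were higher with TGF-beta1 at 598, 488 and 1044 and 162, 159 and 341 CPM. Col4a1 and Col4a2, the main basement membrane chains, differed by under 1.2-fold.

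**Figure D5:**
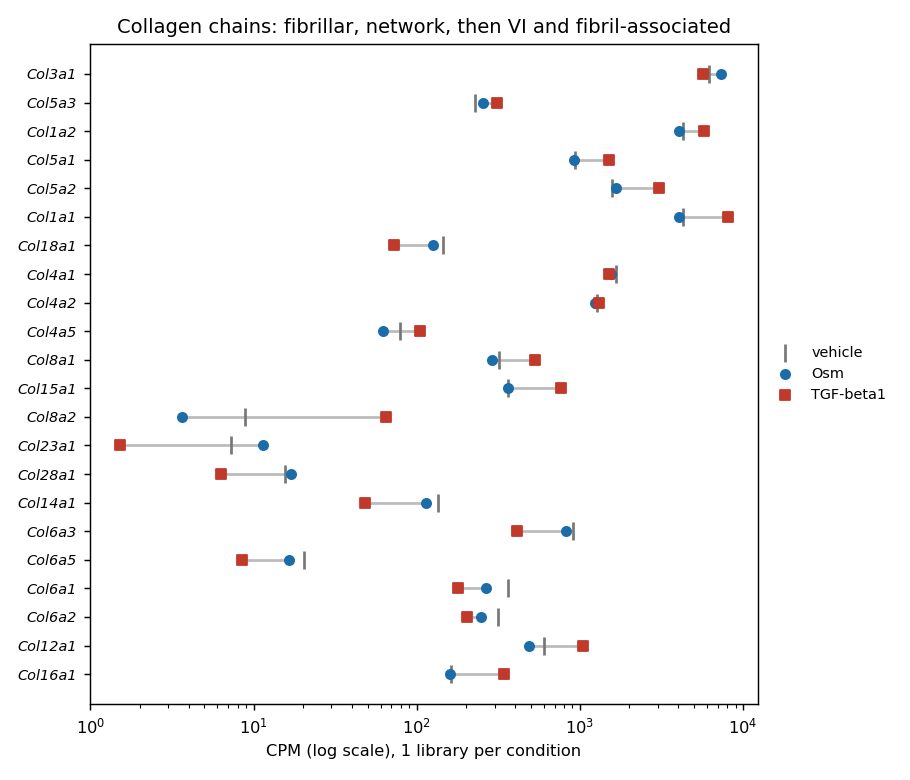
Level in CPM, on a log axis, of the 22 expressed collagen chains, fibrillar chains first, then network chains, then collagen VI and fibril-associated or transmembrane chains, with vehicle as a grey tick, Osm as a blue circle and TGF-beta1 as a red square, 1 library per condition. The red square is to the right in 5 of the 6 fibrillar chains, and to the left in 7 of the 9 chains of the last class.

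Collagen crosslinking showed the largest single difference in CPM. Lox, lysyl oxidase, which crosslinks collagen and elastin (chr18:52649139-52662939, minus strand), had 2667 CPM in vehicle, 2389 with Osm and 8606 with TGF-beta1, a difference of 6217 CPM and 3.60-fold (3.56 to 3.64). Per gene length, in the deposited FPKM, Lox was 498 with Osm and 1805 with TGF-beta1, and moved from rank 47 to rank 5 among the genes compared. Timp1 moved from rank 15 to rank 6 and Col1a1 from 32 to 11. In the other direction Scd1, which desaturates fatty acids, was at rank 8 with Osm and 32 with TGF-beta1, Psap, the lysosomal protein prosaposin, at 9 and 29, and Aebp1, a collagen-binding protein, at 10 and 24. Of 27 genes of collagen processing, 3 were called, all higher with TGF-beta1: Lox, Loxl2 and P4ha3. P4ha3, a subunit of a prolyl hydroxylase, had 4.73, 5.99 and 13.5 CPM. Loxl2 had 195, 190.4 and 394 CPM, shares 55.1% of its windows with another gene and fell under 2-fold with housekeeping scaling. The 5 enzymes and helpers of propeptide processing had ratios above 0, among them Bmp1, which cuts procollagen, at 506, 628 and 510.03 CPM. Elastic fibre genes went both ways: Ltbp2 had 591, 592 and 1998 CPM and Fbln5, an elastin assembly protein, 176, 148 and 314, while Fbln1 had 214, 198 and 62.1. Mfap4, a microfibril protein, had 31.1, 22.4 and 143 CPM, and overlaps Mapk7 on the opposite strand, which had 43.6, 39.6 and 47.5 CPM.

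Other matrix proteins were also divided. Fn1, fibronectin, showed the largest difference in CPM toward Osm, at 16669, 16765 and 12482 CPM, while its ratio was 1.34 (1.34 to 1.35). Dcn, the collagen-binding proteoglycan decorin, had 1984, 1757 and 824 CPM and Tnxb, tenascin X, 1630.1, 1592 and 511, both over 2-fold higher with Osm. Bgn, the close relative of decorin, was nearly level at 6318, 6331 and 6774 CPM. Among the members of the CCN family, Ccn3 was higher with Osm, at 112, 105 and 32.6 CPM, and Ccn2 and Ccn4 higher with TGF-beta1, with Ccn4 at 147, 149 and 337. Lama1, a laminin chain, had 11.8, 10.6 and 58.1 CPM and was the 1 called of 11 laminin and nidogen genes. Sparc had 3973, 3760.1 and 5517 CPM. Cspg4, a cell surface proteoglycan that also marks mural cells, had 8.53, 7.38 and 74.9 CPM (10.1-fold, 8.46 to 12.3). Of the 4 expressed mural genes Cspg4 was the 1 at least 2-fold higher with TGF-beta1. Des had 22.6, 20.3 and 29.2 CPM, Ndufa4l2 27.01, 22.99 and 10.4, and Notch3 14.6, 15.5 and 10.4. The count of Ndufa4l2 is uncertain because it overlaps Shmt2 on the opposite strand, which had 158, 151 and 280 CPM. Ncam1, an adhesion molecule that is on the Schwann list, had 28.4, 28.98 and 204 CPM (7.03-fold, 6.41 to 7.74), while Mbp, of the same list, had 11.2, 10.4 and 11.1.

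Of 38 matrix proteases and inhibitors 9 passed 2-fold toward Osm and 3 toward TGF-beta1, and all 8 metalloproteinases had ratios above 0, with a median of 0.80. Mmp3, the stromelysin that cuts many matrix proteins, had 1149 CPM in vehicle, 1390.5 with Osm and 354 with TGF-beta1 (3.93-fold, 3.83 to 4.04). Its neighbours Mmp8, a collagenase, and Mmp27 had 10.4, 11.1 and 4.67 and 21.5, 24.7 and 5.53 CPM. Plau, the urokinase that activates plasminogen, had 429.6, 385 and 93.3 CPM. Osm was slightly below vehicle for Plau and slightly above it for Mmp3, and TGF-beta1 was the lowest library for both. The tissue inhibitors were split: Timp2 had 1097, 993 and 487 CPM and was higher with Osm, while Timp3 had 236, 166 and 702 and was 4.22-fold higher with TGF-beta1 (4.06 to 4.40). Adamts15 and Adamts8, which both cleave proteoglycans, had 288, 325 and 106 CPM and 2.55, 2.19 and 15.5. Lgmn, a lysosomal protease, had 371, 439 and 171 CPM, and Ctsb, cathepsin B, 3000.2, 3193 and 1617, just under 2-fold. The count of Adamts7 is uncertain because it overlaps Tbc1d2b on the opposite strand, which had 606, 660.1 and 301 CPM.

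Genes of amino acid synthesis had ratios below 0 as a group. Atf4 is the transcription factor that raises such genes when amino acids run short, and 26 of its 29 listed targets and relatives had ratios below 0, with a median of -0.64. All 14 synthesis enzymes were below 0 and 3 of them passed 2-fold: Cth, which makes cysteine, at 10.4, 11.5 and 37.8 CPM, Pycr1, which makes proline, at 34.6, 27.7 and 75.03, and Psph, of serine synthesis, at 61.8, 53.9 and 111. Psph overlaps Cct6a on the opposite strand, which had 162, 158 and 246 CPM, and is uncertain, and it fell under 2-fold with housekeeping scaling. The serine pathway enzymes Phgdh and Psat1 had 172, 166 and 281 CPM and 336, 336 and 529, both short of 2-fold. For these 5 enzymes TGF-beta1 was above both other libraries, and vehicle was within 1.2-fold of Osm in all but Pycr1. Fgf21, a secreted hormone that is a known Atf4 target, had 2.99, 2.36 and 13.1 CPM (5.48-fold, 3.96 to 7.91). The Atf4 composite motif TGATGCAA occurred in 4 windows of genes higher with TGF-beta1 (5.80%), 1 of genes higher with Osm (0.699%), 0.755% of all genes compared and 0.895% of all windows. The 4 of genes higher with TGF-beta1 are shown, and of the 3 called enzymes only Pycr1 was among them. Fgl2, the 1 gene higher with Osm that held the motif, had 45.7, 63.2 and 19.9 CPM and is not shown. Whether Atf4 took part in any of these differences was not tested. Positions of the 4 are chr7:45615576-45615675 (minus strand) for Fgf21, chr11:120643798-120643897 (minus strand) for Pycr1, chr17:29318714-29318813 (plus strand) for Pi16 and chr12:101818555-101818654 (minus strand) for Fbln5.
Fgf21: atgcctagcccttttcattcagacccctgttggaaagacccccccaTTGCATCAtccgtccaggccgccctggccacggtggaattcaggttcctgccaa
Pycr1: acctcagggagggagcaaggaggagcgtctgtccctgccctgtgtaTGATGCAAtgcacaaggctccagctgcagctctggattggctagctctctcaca
Pi16: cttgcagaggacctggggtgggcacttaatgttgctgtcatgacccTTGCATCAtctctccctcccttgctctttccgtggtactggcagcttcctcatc
Fbln5: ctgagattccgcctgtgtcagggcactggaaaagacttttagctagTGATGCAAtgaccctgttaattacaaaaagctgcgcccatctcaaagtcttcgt
The matches end 132, 96, 115 and 117 bases before the start in that order. Genes of endoplasmic reticulum folding had ratios below 0 in 21 of 22 cases with a median of -0.29 and none past 2-fold, for example Hspa5, the main chaperone of that compartment, at 1263, 1241 and 1816 CPM.

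Growth factors, Wnt and IGF genes held some of the widest gaps, but as groups they were shifted little. Their median log2 ratios were 0.23, 0.09 and 0.09, against -0.04 over all genes compared. Igfbp5, which binds insulin-like growth factors (chr1:72897091-72914043, minus strand), had 147 CPM in vehicle, 77.04 with Osm and 8.30 with TGF-beta1, 9.25-fold higher with Osm (7.85 to 11.04) although both ligands were below vehicle. Igfbp4 had 378, 349.9 and 121 CPM, and Pappa, the protease that cuts it, 5.33, 4.09 and 10.7, in the opposite order. Pdgfc, a platelet-derived growth factor, had 2.77, 4.21 and 18.99 CPM, with both ligands above vehicle. Vegfd, a lymphatic growth factor, had 262, 207 and 62.8 CPM, and Hgf, hepatocyte growth factor, 50.6, 63.4 and 31.03. Of 23 Wnt pathway genes 6 were higher with Osm and 1 with TGF-beta1. The secreted Wnt inhibitors Sfrp2, Sfrp1, Dkk3 and Frzb were 4 of the 6, with Sfrp2 at 49.997, 56.4 and 7.98 CPM (7.05-fold, 5.94 to 8.47) and Sfrp1 at 461, 476 and 187. Axin2, a target and inhibitor of the pathway, had 29.1, 27.7 and 10.04 CPM and the ligand Wnt16 7.83, 11.4 and 2.77. Wnt5a, a ligand of the non-canonical branch, was higher with TGF-beta1 at 10.8, 10.4 and 21.97 CPM. Notch4 had 2.39, 2.07 and 14.9 CPM, while Notch1 and Notch2 differed by under 1.2-fold.

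Most genes of the progenitor and fat cell programmes had higher levels with Osm than with TGF-beta1, with vehicle nearer to Osm in the sums. The 27 listed progenitor genes summed to 4346 CPM in vehicle, 4071 with Osm and 2843 with TGF-beta1. The 19 listed adipogenic regulators summed to 1069, 1136 and 882 CPM. Of 25 adipose stromal progenitor genes 5 were higher with Osm and 1 with TGF-beta1, with a median log2 ratio of 0.28. Ly6a, the stem cell antigen Sca-1, had 387 CPM in vehicle, 403 with Osm and 102 with TGF-beta1 (3.95-fold, 3.76 to 4.16), and Ly6c1, which shares 36.7% of its windows with another gene, 58.9, 53.99 and 14.1. F3, tissue factor, which marks a stromal subset that restrains fat cell formation, had 449.7, 419 and 203 CPM. Pi16, a marker of early progenitors, was the 1 gene of the list that was higher with TGF-beta1, at 16.96, 15.4 and 74.5 CPM (4.82-fold, 4.23 to 5.52). Of 13 adipogenic regulators 11 had ratios above 0, with a median of 0.45, and none passed 2-fold. Pparg, the master factor of fat cell formation, had 25.5, 20.2 and 11.01 CPM and Cebpa, its partner, 65.3, 76.2 and 44.98. Lpl, lipoprotein lipase, had 1523, 1504 and 571 CPM and Apoe, a lipid carrier, 398, 349 and 92.9, both over 2-fold higher with Osm. Scd1, at 5756, 6263 and 3299 CPM, had a ratio of 1.90 (1.88 to 1.92). Plin4, a lipid droplet protein, had 39.4, 31.5 and 4.72 CPM, and overlaps Hdgfl2 on the opposite strand, which had 43.1, 45.8 and 40.3 CPM. None of 23 cholesterol synthesis genes and none of 19 glycolysis genes passed 2-fold, with medians of -0.01 and -0.08.

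Transcription factor genes were rarely among the calls. Of 601 genes to which the deposited table assigns a transcription factor family, 4 (0.666%) passed 2-fold toward Osm and 1 (0.166%) toward TGF-beta1, together 0.832%. Besides Id3 the 4 included Atoh8 at 22.1, 19.9 and 7.65 CPM and Hlf at 20.2, 19.4 and 8.63. In both the TGF-beta1 library was the low one. Foxs1, a forkhead factor, was the 1 higher with TGF-beta1, at 6.30, 6.86 and 18.4 CPM (2.68-fold, 2.17 to 3.33). None of the 219 genes of the C2H2 zinc finger family was called, and their log2 ratios ran from -0.82 to 0.94. The 6 STAT genes had a median of 0.29. Of 22 cell cycle genes 2 were called, Mcm5, of the DNA replication helicase, at 6.14, 4.90 and 11.1 CPM and Rrm2, which makes deoxynucleotides, at 7.17, 6.11 and 12.7, both higher with TGF-beta1. Rrm2 fell under 2-fold with housekeeping scaling, and neither gene passed it in FPKM with a pseudocount of 1, a scale that compresses genes at low levels.

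Some genes with large folds are on no list. Cpxm1, a secreted carboxypeptidase relative (chr2:130232695-130239494, minus strand), had 469 CPM in vehicle, 583 with Osm and 98.1 with TGF-beta1 (5.94-fold, 5.65 to 6.25). Gas1, a membrane protein of growth arrest, had 271, 333 and 60.4 CPM, and Kit, the stem cell factor receptor, 22.4, 23.9 and 4.50. Csf2rb, the shared receptor chain of several haematopoietic cytokines, had 14.999, 25.4 and 3.26 CPM, and 16.7% of its windows occur in another gene. Csmd1 had 6.25, 12.6 and 1.09 CPM. Toward TGF-beta1, Lrp2, the endocytic receptor megalin, had 2.88, 1.27 and 13.3 CPM (10.3-fold, 6.80 to 17.1), and Nes, the intermediate filament nestin, 20.7, 17.6 and 81.98. Sorcs2, a sorting receptor, had 1.85, 4.03 and 17.1 CPM, with both ligands above vehicle. Csmd1 and Lrp2 did not pass 2-fold in FPKM with a pseudocount of 1. The same held for C2, C7, Col28a1, Col6a3, Dusp5, Frzb, Grem1, Hgf, Hlf, Mmp8, P4ha3, Pappa, Psmb8, Psph, Tgfbi and Wnt5a among the genes named above.

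Pairs of compared genes that follow each other on a chromosome were looked up in the table's own mm39 coordinates. Genes outside the comparison were passed over, so the members of a pair need not adjoin. Prxl2a and Gm8113, both higher with Osm, counted as a pair over a span of 3455 kb. Of 9030 such pairs, 20 (0.221%) were both higher with Osm and 3 (0.0332%) both higher with TGF-beta1. A neighbour called the same way was present for 37 of the 204 genes (18.1%) and 6 of the 100 (6%). Of all genes compared, 2.25% and 1.10% were called in those directions, and the share of all genes with a called neighbour was not counted. Some pairs are related genes with shared sequence, such as Csf2rb and Csf2rb2, with 16.7% and 21.4% of windows in another gene. Ahsg, Fetub and Kng2, which encode related cystatin-domain plasma proteins, lie together at chr16:22710027-22848232, and Fetub had 44.3, 64.3 and 17.8 CPM. Mmp3, Mmp8 and Mmp27 lie at chr9:7445822-7581886. Tmem176b, Tmem176a and Gpnmb lie at chr6:48810752-49047863, with Gpnmb, a glycoprotein of lysosome-rich cells, at 1879, 1868 and 839 CPM. Ccl11 and Ccl8, Tnxb and C4b, and Ly6a and Ly6c1 were further pairs. Among the 304 called genes, 24 share at least 20% of their windows with another gene, Prl2c2 (89.3%) the highest of those in the figures.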

How the data were processed

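The authors deposited whole-number read counts per gene and FPKM values (fragments scaled by gene length and library size) for the same genes, from polyadenylated RNA per the labels' protocols. CASAVA, HISAT2, HISAT and TopHat2 and the build mm39 are named, without versions or roles, per the submitters' processing notes. The sources used here give neither the read counter nor the annotation release nor whether strand was kept, so genes overlapping on opposite strands cannot be told apart.

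Groups were taken from the sample titles. Counts were scaled to CPM with TMM factors (edgeR 4.0.16, R 4.3.3) over the 3 libraries, and log2 ratios used a prior count of 0.5. Exact 95% intervals of the count ratio are conditional binomial (Clopper-Pearson, scipy 1.17.1, with pandas 2.3.3 and numpy 2.4.6 in Python 3.11.15). They cover counting error only, and reads without molecular identifiers are not independent molecules. A count of 0 allows up to 3 counts, 0.163 to 0.173 CPM. The computation was tested on simulated data. DESeq2 1.42.0 gave alternative size factors. Deposited FPKM served for ranks per length and as an alternative.

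The genes compared and the 41 pathway and 8 cell type lists (1125 of 1128 symbols found) were chosen with earlier results of these data known, so list counts are descriptions and no set test was run. Named genes were the 25 highest and lowest ratios, the 10 largest CPM differences each way, list members at 5 CPM or more that passed 2-fold with the 3 highest of each list, the 10 highest by FPKM, a set of receptors and known targets, and transcription factors past 2-fold. Genes named outside this rule, to complete a family or as neighbours or motif carriers, were chosen after their values were seen. A few genes that the lists and counts include are not reported here. Shared sequence was measured as the percent of 50-base windows, 1 in 10 sampled, that occur in a transcript of another listed gene (GENCODE transcripts of an earlier build).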

Additional observations from a re-analysis of the deposited data

How the results depend on the processing

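The counts of 204 and 100 genes became 200 and 104 with DESeq2 size factors, 209 and 96 with plain CPM, 230 and 88 with scaling to the housekeeping genes, 201 and 96 with a prior count of 5, 221 and 107 over every biotype, and 144 and 69 from deposited FPKM with a pseudocount of 1. Filters of 5 and 20 CPM gave 262 and 135 of 10247 genes, and 164 and 70 of 7333. Larger moves came from 4 settings, each of which changes how many genes are tested or how large a difference is counted. No filter on low counts gave 1424 and 1194 of 15072 genes. A fold of 1.5 gave 571 and 391, and a fold of 3 gave 72 and 34. The 3934 genes that overlap no other listed gene gave 115 and 45. Genes higher with Osm were 67.1% of the calls in the main setting. In these 4 settings they were 54.4%, 59.4%, 67.9% and 71.9%, so the split depends on the filter and the fold. Of 160 named genes past 2-fold none changed direction under any of the 5 alternatives run on them, and 159 stayed past 2-fold with DESeq2 size factors, 160 with plain CPM, 155 with housekeeping scaling, 157 with a prior count of 5 and 118 from FPKM. Over the 41 lists, medians moved by 0.1 or more in 3, all from FPKM: complement to 0.97, acute-phase proteins to 2.13 and hyaluronan from -0.51 to -0.29. With housekeeping scaling 4 medians near 0 changed sign, to 0.03 for immediate early and AP-1 genes, 0.05 for cholesterol synthesis, 0.01 for mitochondrially encoded genes and 0.01 for the housekeeping genes. Scaling moved the median of all genes by at most 0.06 on the log2 scale. With 1 library per condition no library could be left out, and the spread between cultures is unknown. No paired analysis was possible because each condition has 1 library. At low levels depth limits the comparison: 76 of the genes higher with Osm and 38 of those higher with TGF-beta1 were under 10 CPM in the lower library.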
